A study of Arabidopsis thaliana with 54 samples.

Results

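Cytochrome P450 genes were followed in Arabidopsis thaliana seedlings given ethylene or shade. Members were the features of the array that carry exactly 1 gene with a symbol made of CYP, a family number, subfamily letters and a gene number. This gave 24 genes, each with 1 feature, out of 38408 features on the array and 17504 features that carry any gene. The TAIR10.1 gene table lists 225 genes with symbols of this form, and the other P450 genes are not analysed here. Of the 24 genes, 20 belong to the CYP71B subfamily and 4 do not, namely CYP78A9, CYP79A2, CYP79C2 and CYP84A4.

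All plants were of accession Col-0 and were grown in short days. At 1 day of age they were moved into airtight glass desiccators, so every group shares that enclosure. Controls stayed in light with photosynthetically active radiation of 140 and blue light of 29 µmol per square metre and second and a red to far-red ratio of 2.1. The ethylene groups received 1 µl per litre of the gas in the same light. The shade groups stood under a green filter, which lowered the radiation to 40, the blue light to 3 and the red to far-red ratio to 0.45. Hypocotyls, and cotyledons cut together with the shoot apical meristem, were harvested at 1.5, 13.5 and 25.5 h, and the 13.5 h harvest fell in the dark. The 54 arrays form 18 groups of 3, and each array holds a pool of 2 technical replicates of 25 seedlings. Replicates came from 3 independent experiments per the labels. Whole organs were measured, so fewer cells of a type and less RNA per cell cannot be told apart.

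Cytochrome P450s are heme-thiolate enzymes that insert an oxygen atom into small molecules. In plants most sit on the endoplasmic reticulum and take electrons from NADPH through a P450 reductase. They act in the synthesis and breakdown of hormones, in cutin and lignin synthesis and in specialized metabolism. The CYP71 family is a large plant family of specialized metabolism, and the substrates of most CYP71B enzymes are not described here. The best known of them, CYP71B15 of camalexin synthesis, is not analysed here.

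The features that name exactly 1 gene leave large gaps in the known P450 roles. A further 20904 features of the array name no gene, so the array itself may cover more of these roles. Of 12 lists of P450s by role, 8 had no member, among them those of brassinosteroids, gibberellins, abscisic acid, jasmonate and cutin. Members with a known role were CYP71B6 and CYP79A2 (2 of 16 glucosinolate and camalexin P450s), CYP84A4 (1 of 8 phenylpropanoid P450s), CYP71B31 (1 of 13 terpene P450s) and CYP78A9 (1 of 6 CYP78A genes listed for organ growth). None of 9 listed electron donors and partners of P450s had a feature that names exactly 1 gene. Below, a listed gene is called measured only where it had such a feature.

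Most members lie in gene clusters. By gene order in TAIR10.1, 13 of them lie in a cluster from AT3G26150 to AT3G26330, which holds 18 P450 genes among 24 annotated genes. In that order they are CYP71B16, CYP71B19, CYP71B20, CYP71B21, CYP71B22, CYP71B23, CYP71B24, CYP71B25, CYP71B26, CYP71B34, CYP71B35, CYP71B36 and CYP71B37. CYP71B5, CYP71B31 and CYP71B32 lie together between AT3G53280 and AT3G53305. CYP71B28 (AT1G13090) and CYP71B29 (AT1G13100) are adjacent. CYP79C2 (AT1G58260), CYP71B6 (AT2G24180), CYP71B38 (AT3G44250), CYP78A9 (AT3G61880), CYP84A4 (AT5G04330) and CYP79A2 (AT5G05260) lie apart from the other members. Cluster genes of 1 subfamily resemble each other in sequence. Whether the probes of a feature also bind its neighbours was not tested, so values of neighbours are less certain than those of genes that lie apart.

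Levels are log2 values after RMA, and the median of an array lay between 4.15 and 4.55. The mean of 16 members lay below the lowest of these medians. The mean of 7 lay above the highest, namely CYP71B5, CYP71B34, CYP71B29, CYP71B6, CYP84A4, CYP71B35 and CYP71B28. Arrays of a group correlated at 0.966 to 0.983 over all features. In 5 hypocotyl arrays the mean of 8 jacalin-type lectin genes was more than 1 above the tissue median of 3.13, with values between 4.29 and 5.73. They were control replicates 1 and 3 at 1.5 h, control replicates 1 and 3 at 13.5 h and ethylene replicate 1 at 13.5 h. The mean of 5 root marker genes was also high in them, at 7.24 to 9.10, against a hypocotyl median of 5.92 and a cotyledon range of 4.49 to 6.12. It was also high in other hypocotyl arrays of 1.5 h, at 6.87 in control replicate 2 and 6.34 to 8.14 in shade. Under ethylene at 1.5 h none of the 5 genes was called against the hypocotyl control, with a median change of -0.002. The part of root or lectin RNA in the results was not tested. Called changes of P450 genes that rest on the 5 arrays high in lectins are given with and without them. Without them the control groups at 1.5 and 13.5 h keep 1 hypocotyl array each, which is assumed to vary like the other groups. The 25.5 h groups hold none of these arrays.

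A change is the mean of 3 arrays minus the mean of 3 others in log2 units, given with its standard error from a limma fit over all arrays. A gene was called at a Benjamini-Hochberg adjusted p below 0.05 over the 17504 features, and "rose" and "fell" are used only of called genes. Of 288 tests of a member in the 12 comparisons of a treatment with its control, 23 were called. They fell on 14 of the 24 genes, with 21 calls in hypocotyls on 13 genes and 2 calls in cotyledons on 2 genes. No member was called the same way in more than 3 of the 12 comparisons. Of the 12 comparisons, hypocotyl ethylene at 25.5 h had the highest count of calls, where 10 members were called, 2 higher and 8 lower, which is 41.7% of the members beside 22.9% of all features. By direction, 8 of 24 members fell there beside 11.1% of all features, and 2 of 24 rose beside 11.8%. The shares of all features depend on the scaling, and after centring on reference genes 19.9% were lower and 7.46% higher, with 9 members lower and 2 higher. The median change of the members was -0.14, and that of all features was -0.02. These counts and medians describe 24 genes, many of which share a gene cluster.

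**Figure D1:**
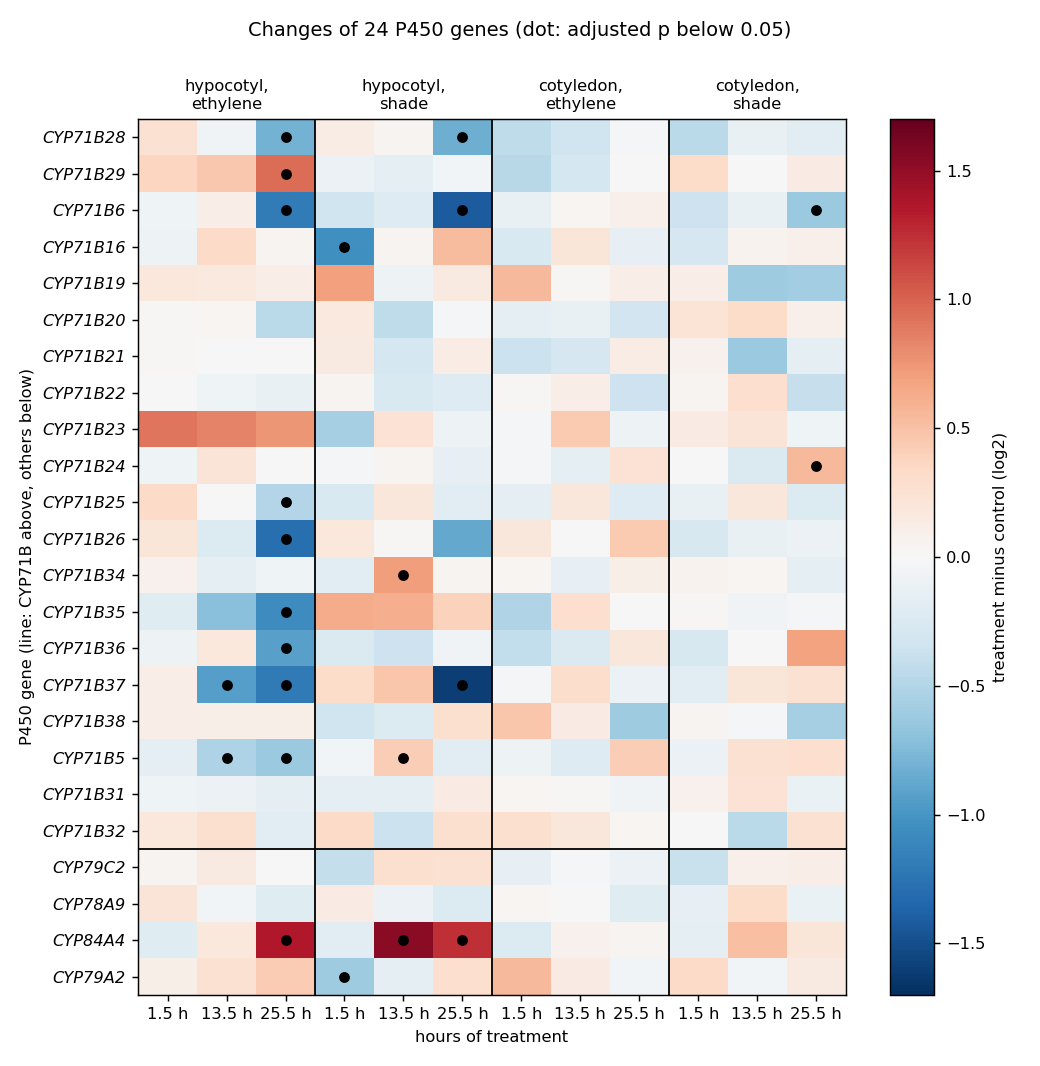
Change of each P450 gene (rows) against the control of the same organ and time (columns), coloured by the log2 difference between the means of 3 arrays each, with a dot where the limma adjusted p is below 0.05. The dots gather in the hypocotyl ethylene 25.5 h column, with 10 of the 24 genes, and the cotyledon columns hold 2 dots.

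CYP84A4, a relative of ferulate 5-hydroxylase that acts in arabidopyrone synthesis, had the widest range of all members, with group means from 4.26 to 8.11. In hypocotyl controls it stood at 7.97, 8.37 and 7.98 at 1.5 h, at 5.84, 5.79 and 5.52 at 13.5 h and at 5.86, 6.05 and 6.22 at 25.5 h. The 3 early values lay above all later ones, and the change from 1.5 h was -2.39 at 13.5 h (adjusted p = 1.69e-09, limma) and -2.06 at 25.5 h (adjusted p = 6.15e-08, limma). With the arrays high in lectins left out these changes were -2.58 (adjusted p = 0.000184, limma) and -2.33 (adjusted p = 4.32e-05, limma). Shaded hypocotyls held 7.29, 7.28 and 7.18 at 13.5 h and 6.92, 7.35 and 7.59 at 25.5 h. At both times the shade arrays lay above every control array of that time, and the gene rose by 1.53 ± 0.27 (adjusted p = 6.17e-05, limma) and by 1.25 ± 0.27 (adjusted p = 0.000524, limma). Without the arrays high in lectins the 13.5 h rise was 1.46 with an adjusted p of 0.0133 in limma.

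Ethylene moved CYP84A4 later than shade did. At 13.5 h the ethylene arrays held 5.89, 5.98 and 5.83, close to control, and shade exceeded ethylene by 1.35 (adjusted p = 0.000202, limma; 0.00197 without the arrays high in lectins). At 25.5 h of ethylene they held 7.54, 7.26 and 7.39, all above control, and the gene rose by 1.36 ± 0.27 (adjusted p = 8.78e-05, limma). Both treatments at 25.5 h left the level between the early and the late control. In cotyledons the gene had group means of 4.26 to 4.87 and was not called. Its cotyledon change at 13.5 h of shade was 0.51 ± 0.27 (adjusted p = 0.326, limma). HCT, another phenylpropanoid enzyme, did the opposite at 25.5 h and fell in the hypocotyl by 0.88 under ethylene (adjusted p = 2.32e-08, limma) and by 0.38 under shade (adjusted p = 0.0131, limma). DFR, an enzyme of anthocyanin synthesis, fell by 4.53 under shade (adjusted p = 2.01e-06, limma) and had a change of 0.78 ± 0.68 under ethylene (adjusted p = 0.516, limma). These were the 2 measured of 17 listed phenylpropanoid and flavonoid genes outside the P450s. At 13.5 h of shade in the hypocotyl 1 of the 2 was called higher and 1 lower. So the opposite direction to CYP84A4 is stated for 25.5 h only.

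**Figure D2:**
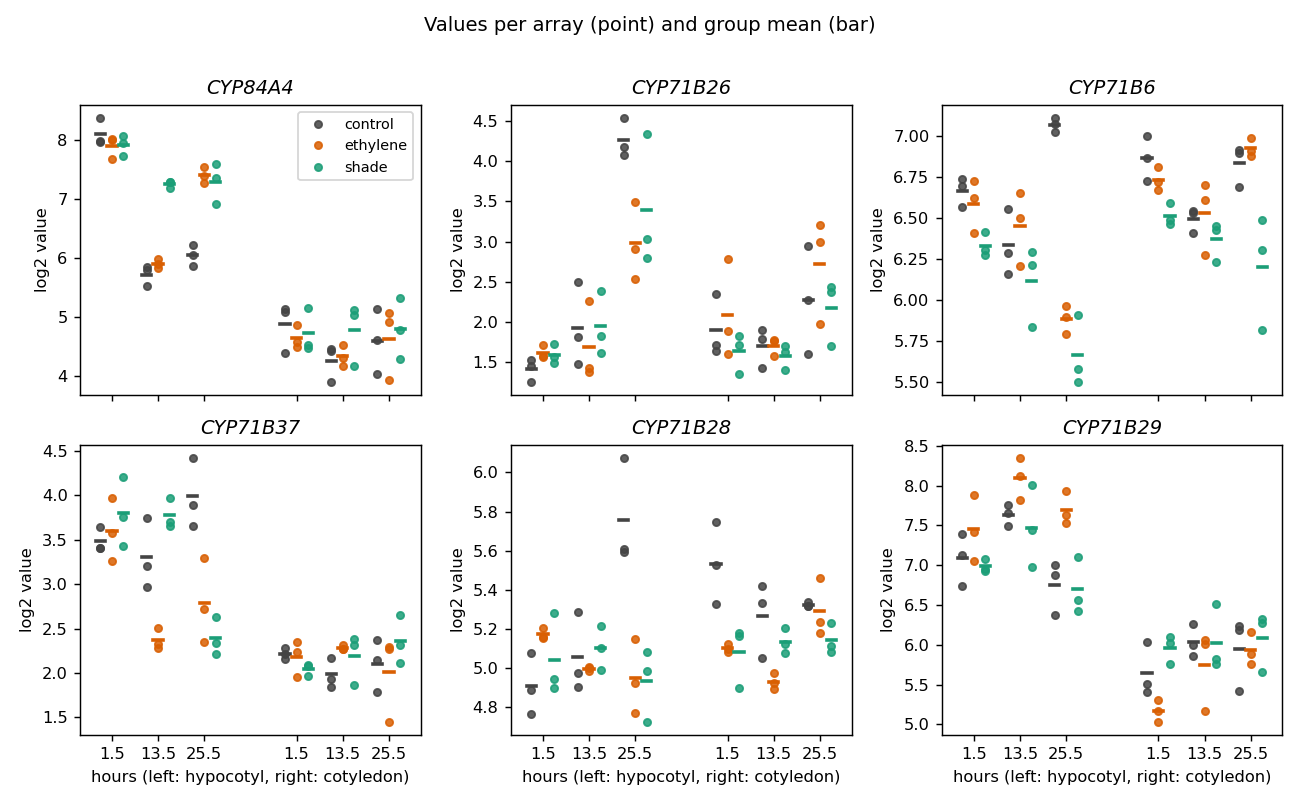
Level (log2 value) of 6 P450 genes at 3 times in hypocotyl (left) and cotyledon (right), with a point for each array and a bar for each group mean. CYP84A4 falls in hypocotyl controls from a mean of 8.11 and lies higher in treated arrays at 25.5 h, whereas the control arrays of CYP71B6 at 25.5 h lie above all treated hypocotyl arrays of that time.

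CYP71B6, which converts indole-3-acetonitrile to indole-3-carbaldehyde and the corresponding acid, fell under both treatments in the hypocotyl at 25.5 h. Control arrays held 7.07, 7.03 and 7.11, ethylene arrays 5.79, 5.89 and 5.96, and shade arrays 5.91, 5.58 and 5.5. No treated array came within 1 log2 unit of a control array. The gene fell by 1.19 ± 0.14 under ethylene (adjusted p = 5.6e-09, limma) and by 1.41 ± 0.14 under shade (adjusted p = 2.41e-10, limma). At 1.5 and 13.5 h it was not called under either treatment. In cotyledons at 25.5 h it held 6.92, 6.90 and 6.69 in control, 6.99, 6.88 and 6.91 in ethylene and 5.82, 6.31 and 6.49 in shade. Only the shade arrays lay lower there, all below every control array, and the gene fell by 0.63 ± 0.14 (adjusted p = 0.00192, limma). That call was lost when only those 6 arrays entered the fit (adjusted p = 0.138, limma).

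UGT74B1 and UGT74C1, glucosyltransferases of glucosinolate synthesis, were the 2 measured of 17 listed glucosinolate genes outside the P450s. At 25.5 h they fell beside CYP71B6. In the hypocotyl at 25.5 h UGT74B1 fell by 1.27 ± 0.20 under ethylene (adjusted p = 1.94e-06, limma) and by 1.67 under shade (adjusted p = 1.49e-08, limma). UGT74C1 fell by 1.46 ± 0.18 (adjusted p = 2.29e-08, limma) and by 1.36 (adjusted p = 2.52e-07, limma). Under cotyledon shade at 25.5 h UGT74B1 fell by 0.71 (adjusted p = 0.0163, limma) and UGT74C1 by 0.86 (adjusted p = 0.00125, limma). Neither was called under cotyledon ethylene at that time. At 13.5 h of ethylene in the hypocotyl both fell, with a median change of -0.68. CYP71B6 did not move with them there, with a change of 0.12 (adjusted p = 0.725, limma).

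CYP79A2, which makes phenylacetaldoxime from phenylalanine on the way to benzylglucosinolate, was dim, with group means of 1.99 to 2.78. In the hypocotyl at 1.5 h of shade its arrays held 2.02, 2.03 and 1.94, below the control arrays at 2.41, 2.77 and 2.60. The gene fell by 0.60 ± 0.19 (adjusted p = 0.0337, limma). The call was lost without shade replicate 1 (adjusted p = 0.0721), shade replicate 2 (adjusted p = 0.0682), shade replicate 3 (adjusted p = 0.0986), control replicate 2 (adjusted p = 0.131) or control replicate 3 (adjusted p = 0.0861), all in limma. It was also lost after quantile normalization (adjusted p = 0.101) and without the arrays high in lectins (adjusted p = 0.14), where fewer arrays remained and the change was larger, at -0.78. The related CYP79C2 had group means of 2.15 to 2.67 and was called in no comparison.

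CYP78A9, a member of a family that promotes the growth of fruits and seeds, had group means of 1.74 to 2.25 and was not called under any treatment. CYP71B31, which oxidizes linalool in flowers, had no array above 1.84 and no call in any comparison. Both were among 8 members that a filter on dim features left out.

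In the cluster of 13 CYP71B genes, 5 fell and none rose after 25.5 h of ethylene in the hypocotyl. These 38.5% of the cluster's measured genes stand beside 22.9% of all features called and 11.1% lower (19.9% lower after centring on reference genes). They were CYP71B25, CYP71B26, CYP71B35, CYP71B36 and CYP71B37, all in the later part of the gene order. CYP71B34, between CYP71B26 and CYP71B35, had a change of -0.07, with arrays at 7.94, 8.07 and 7.89 against 8.08, 8.08 and 7.95 in control. Of the 7 members before CYP71B25, changes ranged from -0.45 for CYP71B20 to 0.75 for CYP71B23, and none was called. All 7 had means below the lowest array median, as had CYP71B25, CYP71B26 and CYP71B37 among those that fell. Under shade at the same time 1 of the 13 was called, CYP71B37 (15.3% of all features called).

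**Figure D3:**
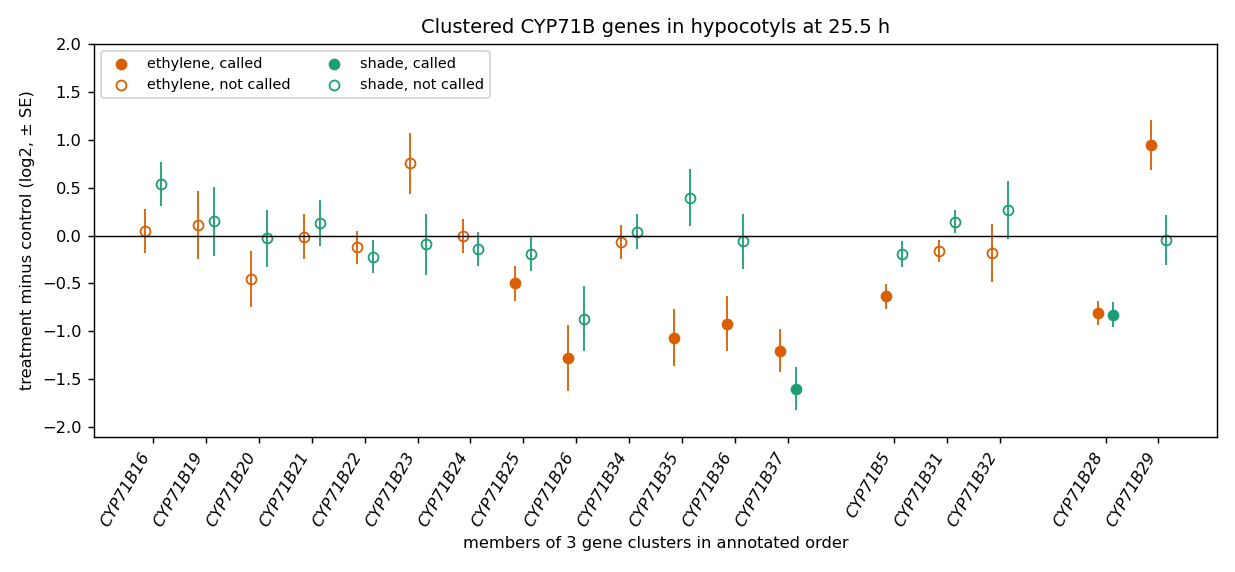
Change of the clustered CYP71B genes in hypocotyls at 25.5 h (log2, with standard error bars) in annotated gene order, for the cluster of 13, the cluster of 3 and the adjacent pair. Filled points are called; in the cluster of 13 they lie from CYP71B25 onward, at -0.50 to -1.60.

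CYP71B37 was the last gene of that cluster and the member of the cluster with most treatment calls. In hypocotyl controls it held 3.74, 3.20 and 2.97 at 13.5 h and 4.42, 3.90 and 3.65 at 25.5 h. Ethylene arrays held 2.51, 2.28 and 2.33 and then 2.35, 2.72 and 3.30, while shade arrays held 3.71, 3.65 and 3.97 and then 2.21, 2.33 and 2.63. At 25.5 h all treated arrays lay below all control arrays, and ethylene replicate 3 lay closest to them. The cotyledon group means were 1.98 to 2.36. The fall at 25.5 h was 1.20 ± 0.23 under ethylene (log2 change of -1.20, adjusted p = 5.59e-05, limma) and the change under shade was -1.60 (adjusted p = 8.3e-07, limma). At 13.5 h CYP71B37 fell under ethylene only among these comparisons with control, by 0.93 ± 0.23 (adjusted p = 0.00332, limma), and shade exceeded ethylene there by 1.41 (adjusted p = 9.7e-06, limma). The 13.5 h fall was not called without control replicate 1 (adjusted p = 0.0583, limma) or without the arrays high in lectins (-0.90, adjusted p = 0.104, limma), and the 13.5 h difference between shade and ethylene was 1.47 without those arrays (adjusted p = 5.14e-05, limma).

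CYP71B26 was left out by the filter on dim features. It was low in hypocotyl controls at 1.5 h, at 1.45, 1.26 and 1.53, and rose to 4.53, 4.07 and 4.17 at 25.5 h. That rise of 2.84 was the largest control change of any member (adjusted p = 1.38e-08, limma). Ethylene arrays held 2.91, 3.49 and 2.54 at 25.5 h, all below control but all above the early control arrays. The change against control was -1.28 ± 0.34 (adjusted p = 0.00364, limma). Shade arrays held 3.03, 4.34 and 2.80, so shade replicate 2 lay among the controls, and the change of -0.87 was not called (adjusted p = 0.0825, limma).

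CYP71B35 separated the treatments in the hypocotyl. At 25.5 h control arrays held 5.83, 6.0 and 5.56, ethylene arrays 4.78, 4.74 and 4.67 and shade arrays 5.78, 6.78 and 6.01. The ethylene arrays lay below all others, and the gene fell under ethylene by 1.07 ± 0.30 (adjusted p = 0.00577, limma). Shade exceeded ethylene by 0.84 at 1.5 h (adjusted p = 0.0447, limma), by 1.34 at 13.5 h (adjusted p = 0.000998, limma; 1.29 and 0.0036 without the arrays high in lectins) and by 1.46 at 25.5 h (adjusted p = 0.000213, limma). Against control, neither treatment was called for CYP71B35 at 1.5 or 13.5 h. The 1.5 h difference was not called without ethylene replicate 1 (adjusted p = 0.111), ethylene replicate 2 (adjusted p = 0.057), ethylene replicate 3 (adjusted p = 0.127), shade replicate 1 (adjusted p = 0.0709) or shade replicate 3 (adjusted p = 0.224), all in limma.

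CYP71B36 and CYP71B25 fell less firmly at 25.5 h of ethylene, and CYP71B25 was left out by the filter on dim features. CYP71B36 held 4.15, 5.54 and 4.88 in control and 3.68, 3.84 and 4.29 in ethylene, so the groups overlapped, and its change was -0.92 ± 0.29 (adjusted p = 0.016, limma). Without control replicate 2 the change was -0.58 (adjusted p = 0.223), and the adjusted p was 0.0876 without ethylene replicate 1 and 0.0574 without ethylene replicate 2, all in limma. CYP71B25 held 2.59, 2.34 and 2.29 in control and 2.10, 2.08 and 1.54 in ethylene, which did not overlap, and its change was -0.50 ± 0.18 (adjusted p = 0.0442, limma). Its change was -0.32 without ethylene replicate 3 (adjusted p = 0.329), and the adjusted p was 0.19 without control replicate 1 and 0.0693 without control replicate 2, all in limma.

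CYP71B34 rose only with shade at 13.5 h in the hypocotyl among its comparisons with control. Shade arrays held 8.81, 8.79 and 8.77 and control arrays 8.02, 8.35 and 7.85, with no overlap. The gene rose by 0.72 ± 0.18 (adjusted p = 0.00533, limma). Without the arrays high in lectins the control group kept replicate 2 alone, and the change was 0.44 (adjusted p = 0.367, limma). Shade exceeded ethylene at that time by 0.89 (adjusted p = 0.000299, limma), and by 0.90 without those arrays (adjusted p = 0.00162, limma).

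CYP71B16, the first gene of the cluster of 13, differed by time and was left out by the filter on dim features. In hypocotyls at 1.5 h it held 2.54, 2.92 and 2.89 in control, 2.48, 2.74 and 2.89 in ethylene and 1.59, 2.06 and 1.58 in shade. The shade arrays lay below all others, and the gene fell by 1.04 ± 0.23 (adjusted p = 0.00193, limma). The level under shade was that of the later controls, which held 1.4, 1.68 and 1.79 at 13.5 h and had fallen by 1.16 from 1.5 h (adjusted p = 0.000107, limma). With the arrays high in lectins left out that control change was -1.24 (adjusted p = 0.0373, limma). The shade change was then -1.18 (adjusted p = 0.056, limma), whereas shade minus ethylene, whose arrays are not among them, was -0.96 (adjusted p = 0.00389, limma).

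CYP71B23 is a member for which the ethylene arrays scattered widely. At 1.5 h ethylene arrays held 4.16, 3.95 and 3.08, control arrays 2.90, 2.84 and 2.73 and shade arrays 2.39, 2.33 and 2.05. The groups did not overlap in that order of ethylene, control and shade. Against control the ethylene change of 0.91 had an adjusted p of 0.138 in limma, and shade minus ethylene was -1.47 ± 0.32 (adjusted p = 0.000826, limma). At 13.5 and 25.5 h the ethylene changes were 0.84 (adjusted p = 0.0809, limma) and 0.75 (adjusted p = 0.0856, limma). At 13.5 h ethylene replicate 3 held 2.55 while replicate 1 held 4.42.

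CYP71B5 fell under ethylene in the hypocotyl. At 25.5 h control arrays held 8.30, 8.08 and 8.42 and ethylene arrays 7.73, 7.65 and 7.51, with no overlap. The change was -0.64 ± 0.13 (adjusted p = 0.000242, limma). At 13.5 h it held 8.32, 8.44 and 7.89 in control, 7.90, 7.69 and 7.50 in ethylene and 8.82, 8.59 and 8.49 in shade. Control replicate 3 lay below ethylene replicate 1 there, whereas all shade arrays lay above all control and ethylene arrays. The ethylene change was -0.52 ± 0.13 (adjusted p = 0.00562, limma) and the shade change 0.42 (adjusted p = 0.0344, limma).

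Both 13.5 h calls of CYP71B5 against control rested on single arrays. The ethylene call was lost without control replicate 2 (adjusted p = 0.0654, limma) or ethylene replicate 3 (adjusted p = 0.0704, limma), and without the arrays high in lectins the change was -0.85 (adjusted p = 0.00155, limma). The shade call was lost without shade replicate 1 (adjusted p = 0.222), shade replicate 2 (adjusted p = 0.0631), control replicate 3 (0.26, adjusted p = 0.313) or the arrays high in lectins (0.19, adjusted p = 0.656), and after quantile normalization (adjusted p = 0.0626) or centring on reference genes (adjusted p = 0.123), all in limma. The difference between shade and ethylene was 0.94 (adjusted p = 9.14e-07, limma) and 1.04 without the arrays high in lectins (adjusted p = 5.18e-07, limma). Its cluster neighbours CYP71B31 and CYP71B32 were called in no comparison.

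CYP71B28 and CYP71B29, which are adjacent genes, moved apart under ethylene in the hypocotyl at 25.5 h. CYP71B28 held 6.07, 5.60 and 5.61 in control, 5.15, 4.92 and 4.77 in ethylene and 5.08, 4.73 and 4.99 in shade. The treated arrays all lay below control, near the control values of 4.89, 5.08 and 4.77 at 1.5 h, from which the control had risen by 0.85 (adjusted p = 1.77e-06, limma). The gene fell by 0.81 ± 0.13 under ethylene (adjusted p = 3.37e-06, limma) and by 0.83 ± 0.13 under shade (adjusted p = 5.04e-06, limma).

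CYP71B29 held 6.87, 6.37 and 7.00 in hypocotyl controls at 25.5 h, 7.93, 7.53 and 7.63 in ethylene and 6.43, 6.56 and 7.11 in shade. The ethylene arrays lay above all others, and the gene rose by 0.95 ± 0.26 (adjusted p = 0.00479, limma). Without control replicate 2 the change was 0.76 and was not called (adjusted p = 0.056, limma). Shade minus ethylene was -1.0 at that time (adjusted p = 0.0036, limma). CYP71B29 and CYP84A4 were the 2 members that rose under ethylene.

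Marker genes moved with some of these hypocotyl changes at 25.5 h. The mean of the 2 measured of 14 leaf and photosynthesis genes was 11.20, 11.23 and 11.33 in control, 10.31, 10.25 and 10.48 in ethylene and 11.20, 11.20 and 11.04 in shade. RCA, the rubisco activase, fell by 1.10 under ethylene (adjusted p = 1.63e-13, limma) and by 0.26 under shade (adjusted p = 0.0286, limma), and LHCB4.1, a light-harvesting protein, fell by 0.71 under ethylene (adjusted p = 1.09e-05, limma). Of 5 measured root markers none was called under ethylene and 1 under shade. The part of photosynthetic tissue or state in the P450 changes was not tested.

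The remaining treatment comparisons held few calls. At 13.5 h of ethylene in the hypocotyl 2 of 24 members fell (12% of all features called, 6.04% lower and 8.18% after centring on reference genes), namely CYP71B37 and CYP71B5. Under hypocotyl shade 2 members fell at 1.5 h (12.4% of all features called, 10.5% lower) and 3 rose at 13.5 h (10.8% called, 6.1% higher). At 25.5 h 1 rose and 3 fell (15.3% of all features called, 7.82% higher and 7.48% lower), and reference gene centring turned the last pair of shares into 5.07% and 13.2%. The share of all features lower in shade at 1.5 h was 4.52% after quantile normalization and 4.07% after centring, where 1 member was called. At 1.5 h of ethylene in the hypocotyl limma called 0 members (3.03% of all features called), with 1 at an unadjusted p below 0.05, and called 1 without ethylene replicate 3. The shares of members called in these 5 comparisons, 0% to 16.7%, were near those of all features.

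**Figure D4:**
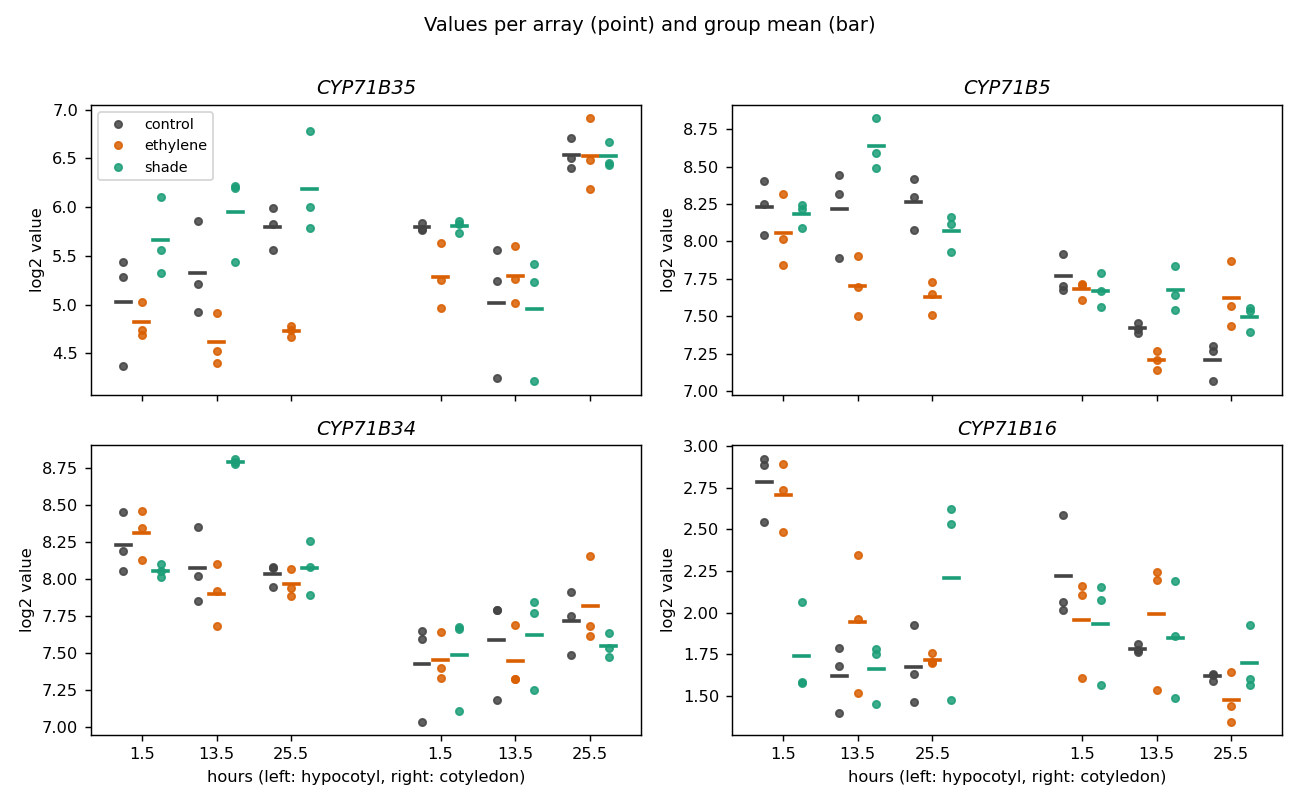
Level (log2 value) of 4 P450 genes at 3 times in hypocotyl (left) and cotyledon (right), with a point for each array and a bar for each group mean. In the hypocotyl at 13.5 h the shade arrays of CYP71B5 and CYP71B34 lie above all ethylene arrays, and CYP71B16 at 1.5 h is lower in shade than in control or ethylene.

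In cotyledons limma called 0 members under ethylene at 1.5, 13.5 and 25.5 h, where 1.01%, 1.61% and 5.2% of all features were called. The members at an unadjusted p below 0.05 numbered 2, 1 and 2, and at 25.5 h 1 was called without ethylene replicate 1. Under cotyledon shade limma called 0 members at 1.5 h (0.526% of all features) and 0 at 13.5 h (4.54%), with 2 and 1 at an unadjusted p below 0.05. At 25.5 h 2 were called (8.81% of all features, 4.91% higher and 3.9% lower), the fall of CYP71B6 and a rise of CYP71B24. CYP71B24 held 1.81, 2.56 and 1.44 in shade and 1.34, 1.44 and 1.39 in control, and rose by 0.55 ± 0.18 (adjusted p = 0.044, limma). It was left out by the filter on dim features, and shade replicate 3 lay at the highest control value. Without shade replicate 2 the change was 0.24 (adjusted p = 0.507), and the adjusted p was 0.0538 without shade replicate 1, 0.13 without control replicate 1, 0.0824 without control replicate 2 and 0.0934 without control replicate 3, all in limma. After quantile normalization or centring on reference genes 1 member was called in that comparison, with 0 higher and 1 lower.

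The response of the hypocotyl was then compared with that of the cotyledon. For ethylene the difference was called for 0 members at 1.5 h by limma (3 at an unadjusted p below 0.05, 0.137% of all features called), 1 at 13.5 h, in the lower direction (3.12%, 1.38% lower), and 6 at 25.5 h, 1 higher and 5 lower (14.8%, 7.07% higher and 7.68% lower). For shade it was called for 0 members at 1.5 h (3 at an unadjusted p below 0.05, 2.16% of all features called), 0 at 13.5 h (4, 3.91%) and 3 at 25.5 h, all lower (5.63%, 2.89% lower). After centring on reference genes the shares of all features in the lower direction were 2.57% and 10.3% for ethylene at 13.5 and 25.5 h and 4.36% for shade at 25.5 h. Without hypocotyl control replicate 2 the 1.5 h count was 1 for ethylene and 1 for shade. At 25.5 h of ethylene the hypocotyl change minus the cotyledon change was -1.28 ± 0.20 for CYP71B6 (adjusted p = 4.61e-06, limma), -1.05 ± 0.19 for CYP71B5 (adjusted p = 5.59e-05, limma) and -0.78 ± 0.18 for CYP71B28 (adjusted p = 0.00178, limma). CYP71B5 in cotyledons held 7.06, 7.30 and 7.27 in control and 7.43, 7.87 and 7.56 in ethylene, which lay above control without a call. The rise of CYP71B29 did not pass this test, with a difference of 0.96 ± 0.37 (adjusted p = 0.0746, limma).

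CYP71B26 differed by -1.73 ± 0.48 at 25.5 h of ethylene (adjusted p = 0.00906, limma), and by -1.39 without cotyledon control replicate 3 (adjusted p = 0.0517, limma). Its cotyledon control mean at 25.5 h was 2.28 and that of CYP71B37 was 2.10, both below the lowest array median. A fall in the cotyledon may not show at such levels. CYP84A4 differed by 1.32 ± 0.38 (adjusted p = 0.011, limma), and its adjusted p was 0.0767 without cotyledon ethylene replicate 1 and 0.0621 without cotyledon control replicate 3. Under shade its difference was not called, at 1.02 at 13.5 h (adjusted p = 0.123, limma) and 1.04 at 25.5 h (adjusted p = 0.102, limma). CYP71B37 differed by -1.86 at 25.5 h of shade (adjusted p = 0.000141, limma). It differed by -1.10 at 25.5 h of ethylene (adjusted p = 0.0133, limma), where the adjusted p was 0.0704 without hypocotyl control replicate 1, 0.0723 without hypocotyl ethylene replicate 1, 0.0552 without cotyledon control replicate 1, 0.05 without cotyledon ethylene replicate 2 and 0.0542 without cotyledon ethylene replicate 3.

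CYP71B37 had a cotyledon control mean of 1.98 at 13.5 h, where a fall may not show. At 13.5 h of ethylene CYP71B37 differed between the organs by -1.23 ± 0.32 (adjusted p = 0.022, limma). The adjusted p was 0.101 without hypocotyl control replicate 1, 0.054 without hypocotyl ethylene replicate 2, 0.0586 without hypocotyl ethylene replicate 3, 0.0569 without cotyledon control replicate 1 and 0.0518 without cotyledon control replicate 3, and the difference was -1.20 without the arrays high in lectins (adjusted p = 0.0957). At 25.5 h of shade CYP71B6 differed by -0.78 ± 0.20 (adjusted p = 0.011, limma), with an adjusted p of 0.0604 without cotyledon shade replicate 3. CYP71B28 differed by -0.65 ± 0.18 (adjusted p = 0.0264, limma), with an adjusted p of 0.135 without hypocotyl control replicate 1, 0.108 without hypocotyl shade replicate 2, 0.0502 without cotyledon control replicate 1, 0.0501 without cotyledon control replicate 2 and 0.0674 without cotyledon shade replicate 2.

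Shade was compared with ethylene directly, since both treatments share their controls. In hypocotyls 5 members differed at 1.5 h (16.8% of all features called), 5 at 13.5 h (14.7%) and 4 at 25.5 h (20%). At 13.5 h all 5 were higher in shade, namely CYP71B37, CYP84A4, CYP71B35, CYP71B5 and CYP71B34, beside 8.21% of all features that were higher. The members as a set did not shift that way. Over the 20 CYP71B genes the median difference was -0.22, with 7 above 0, beside a median of -0.03 for all features. At 1.5 h CYP71B35 was higher in shade (4.11% of all features), and CYP71B16, CYP71B23, CYP71B25 and CYP79A2 were lower (12.7%). These shares of all features were 6.37% higher and 6.56% lower after quantile normalization and 7.07% and 5.19% after centring on reference genes, which turned their order. CYP71B25 differed by -0.59 (adjusted p = 0.0231, limma), and 3 members were called without shade replicate 1 or without ethylene replicate 2, where its adjusted p was 0.0788 and 0.0851. CYP79A2 differed by -0.70 (adjusted p = 0.00919, limma).

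At 25.5 h CYP71B35, CYP71B36 and CYP71B5 were higher in shade than in ethylene and CYP71B29 was lower, a split of 3 higher and 1 lower (9.85% and 10.2% of all features) that became 3 and 2 after quantile normalization. CYP71B5 differed by 0.44 (adjusted p = 0.0131, limma), and its adjusted p was 0.0756 without ethylene replicate 3 and 0.0636 without shade replicate 3. CYP71B36 differed by 0.86 (adjusted p = 0.0297, limma), and its adjusted p was 0.131 and 0.0932 without ethylene replicates 1 and 2 and 0.154 and 0.145 without shade replicates 1 and 3. Without shade replicate 3 the count was 2. At 1.5 h the split of 1 higher and 4 lower became 1 and 2 after centring on reference genes.

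In cotyledons the direct comparison of shade with ethylene called 0 members at 1.5 h in limma (1 at an unadjusted p below 0.05, 2.21% of all features called), 1 at 13.5 h (4.8%, 2.86% higher) and 1 at 25.5 h (12.4%, 6.03% lower). CYP71B6 was lower in shade at 25.5 h by 0.72 (log2 difference of -0.72, adjusted p = 0.000222, limma), and without shade replicate 3 the count of members was 2. CYP71B5 was higher in shade at 13.5 h, with 7.64, 7.84 and 7.54 against 7.14, 7.27 and 7.21 in ethylene and no overlap. The difference was 0.47 (adjusted p = 0.0299, limma). It was not called without ethylene replicate 1 (adjusted p = 0.116), ethylene replicate 2 (adjusted p = 0.0594), ethylene replicate 3 (adjusted p = 0.081), shade replicate 1 (adjusted p = 0.0724) or shade replicate 2 (adjusted p = 0.173), all in limma.

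Untreated organs were compared next. CYP84A4, CYP71B29, CYP71B37 and CYP71B5 were higher in control hypocotyls than in control cotyledons at all 3 times. CYP84A4 was higher by 3.23 ± 0.27 at 1.5 h (adjusted p = 2.73e-13, limma), by 1.46 at 13.5 h and by 1.45 at 25.5 h, and by 3.50 at 1.5 h without the arrays high in lectins (adjusted p = 8.01e-09, limma). CYP71B29 was higher by 1.44, 1.60 and 0.80, and CYP71B37 by 1.27, 1.32 and 1.88. CYP71B5 was higher by 0.47, 0.80 and 1.06, and its 1.5 h difference was 0.07 after centring on reference genes (adjusted p = 0.725, limma). Without the arrays high in lectins the 1.5 and 13.5 h differences were 1.48 and 1.71 for CYP71B29, 1.19 and 1.22 for CYP71B37 and 0.48 and 1.03 for CYP71B5, and the 13.5 h difference of CYP84A4 was 1.53, all still called.

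The 25.5 h difference of CYP71B29 between control organs had an adjusted p of 0.0158, and of 0.0598 without hypocotyl control replicate 1, 0.0817 without hypocotyl control replicate 3 and 0.163 without cotyledon control replicate 3, all in limma. CYP71B26 was higher in the hypocotyl at 25.5 h alone, by 1.98 (adjusted p = 9.1e-06, limma). CYP71B34, at 1.02 and 0.76 without the arrays high in lectins, was higher by 0.80 at 1.5 h (adjusted p = 0.000293, limma, and 0.0712 after centring on reference genes) and by 0.48 at 13.5 h (adjusted p = 0.0368, limma). The latter was not called without hypocotyl control replicate 1 (adjusted p = 0.0601), hypocotyl control replicate 2 (adjusted p = 0.223) or cotyledon control replicate 2 (0.28, adjusted p = 0.323), all in limma. CYP71B28 changed sides with time, from -0.62 ± 0.13 at 1.5 h (adjusted p = 0.000111, limma) to 0.43 at 25.5 h (adjusted p = 0.0081, limma). The former was -0.46 without the arrays high in lectins (adjusted p = 0.0537, limma) and the latter 0.28 without hypocotyl control replicate 1 (adjusted p = 0.137, limma).

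**Figure D5:**
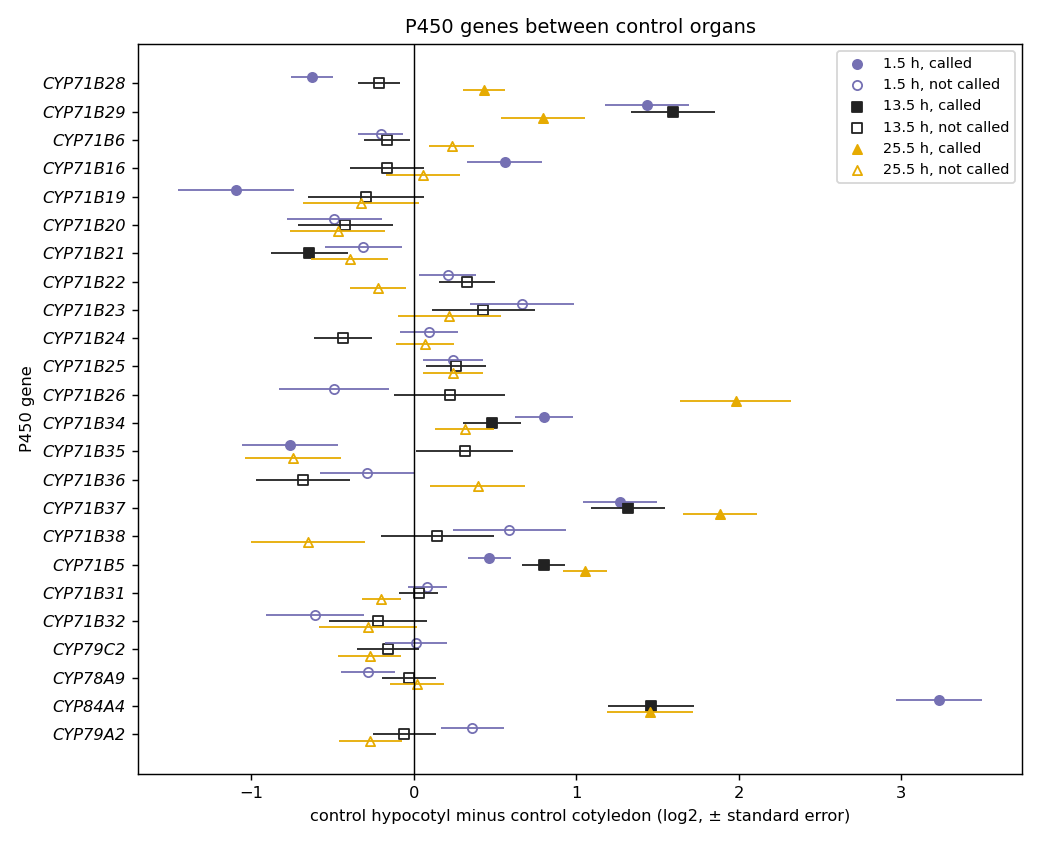
Difference of group means between control hypocotyl and control cotyledon (log2, with standard error bars) for each P450 gene at 3 times; filled symbols are called. CYP84A4 reaches 3.23 at 1.5 h, and CYP84A4, CYP71B29, CYP71B37 and CYP71B5 lie to the right of 0 at all 3 times.

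In all, 9 members differed between control organs at 1.5 h, 6 higher and 3 lower in the hypocotyl (42.6% of all features called, 27% higher and 15.6% lower). At 13.5 h 6 differed, 5 higher and 1 lower (30.5% called, 15.6% higher and 14.8% lower), and at 25.5 h 6 differed, all higher (30.5% called, 16% higher). Centring on reference genes, which moved the median of all features at 1.5 h from 0.083 to -0.316, gave 3 higher and 11 lower at 1.5 h (13.7% and 40.4% of all features), 5 higher and 0 lower at 13.5 h and 6 higher and 1 lower at 25.5 h. Quantile normalization gave 22.2% of all features higher and 19.9% lower at 1.5 h, and among the members 5 higher and 2 lower at 13.5 h and 6 higher and 1 lower at 25.5 h. CYP71B19, lower in the hypocotyl at 1.5 h by 1.09 (log2 difference of -1.09, adjusted p = 0.0115, limma), had an adjusted p of 0.1 without hypocotyl control replicate 1, 0.116 without cotyledon control replicate 1 and 0.584 without the arrays high in lectins, where the difference was -0.43. The root markers moved with these comparisons, with 5 of 5 higher in the hypocotyl at 1.5 h and 4 of 5 at 13.5 h and none called at 25.5 h, and their part in the early differences was not tested.

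CYP71B16, CYP71B35 and CYP71B21 made up the rest of the organ calls and were less firm. CYP71B16 was higher in the hypocotyl by 0.56 at 1.5 h (adjusted p = 0.0455, limma), and was not called without hypocotyl control replicate 2 (adjusted p = 0.138), hypocotyl control replicate 3 (adjusted p = 0.119), cotyledon control replicate 1 (adjusted p = 0.166) or cotyledon control replicate 2 (adjusted p = 0.144). Its difference was 0.16 after centring on reference genes (adjusted p = 0.574, limma) and 0.39 after quantile normalization (adjusted p = 0.155, limma). CYP71B35 differed by -0.76 at 1.5 h (adjusted p = 0.036, limma), and by -0.43 without hypocotyl control replicate 1 (adjusted p = 0.305), with adjusted p of 0.0814, 0.0671 and 0.0658 without cotyledon control replicates 1, 2 and 3. CYP71B21 differed by -0.64 at 13.5 h (adjusted p = 0.0342, limma), and by -0.31 without cotyledon control replicate 3 (adjusted p = 0.391), with adjusted p of 0.0752 and 0.123 without hypocotyl control replicates 1 and 3. Without the arrays high in lectins the differences of CYP71B16, CYP71B35 and CYP71B21 were 0.70, -0.35 and -0.44, with adjusted p of 0.117, 0.568 and 0.416 in limma.

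Control arrays also changed with time, which sets the level that each treatment is measured against. In hypocotyls 2 members fell from 1.5 to 13.5 h, CYP84A4 and CYP71B16 (31.2% of all features called, 20.7% lower), and 4 were called without control replicate 2 at 13.5 h. From 1.5 to 25.5 h 5 members rose and 3 fell (31.9% of all features called, 10.1% higher and 21.8% lower), and 5 were called in all without control replicate 1 at 25.5 h. The rises were those of CYP71B26, CYP71B28, CYP71B35, CYP78A9 and CYP71B6 and the falls those of CYP84A4, CYP71B16 and CYP79A2. After centring on reference genes 3 rose and 2 fell in the first interval and 10 rose and 2 fell over the whole of it, and after quantile normalization 1 rose and 2 fell and then 7 rose and 2 fell. Of all features, centring gave 21.2% higher and 10.7% lower in the first interval and 28.4% and 9.68% over the whole of it, and quantile normalization 15% and 14.5% and then 16% and 14.7%. The centring moved the median change of all features from -0.101 to 0.142 and from -0.106 to 0.231. The 25.5 h controls enter both these changes and the treatment changes of that time, with opposite sign.

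The smaller control changes from 1.5 to 25.5 h were not called without single arrays, and that of CYP79A2 also moved with scaling. CYP71B6 rose by 0.40 (adjusted p = 0.0227, limma), with adjusted p of 0.0545 and 0.0628 without the 25.5 h replicates 1 and 3 and 0.0917 without the 1.5 h replicate 3. CYP71B35 rose by 0.77 (adjusted p = 0.045, limma), and by 0.44 without the 1.5 h replicate 1 (adjusted p = 0.334), with adjusted p of 0.0986 and 0.146 without the 25.5 h replicates 1 and 2. CYP78A9 rose by 0.50 (adjusted p = 0.0182, limma), by 0.23 without the 25.5 h replicate 1 (adjusted p = 0.325), by 0.75 without the 25.5 h replicate 3, and had an adjusted p of 0.0822 without the 1.5 h replicate 1. CYP79A2 fell by 0.49 (adjusted p = 0.0496, limma), with adjusted p of 0.0541, 0.0842 and 0.171 without the 25.5 h replicates 1, 2 and 3, and of 0.176 and 0.0997 without the 1.5 h replicates 2 and 3. It was -0.15 after centring on reference genes (adjusted p = 0.572, limma) and -0.33 after quantile normalization (adjusted p = 0.162, limma). Without the arrays high in lectins the changes of CYP71B6, CYP71B35, CYP78A9 and CYP79A2 were 0.33, 0.36, 0.47 and -0.67, with adjusted p of 0.289, 0.623, 0.211 and 0.0916 in limma. Those of CYP84A4, CYP71B26, CYP71B28 and CYP71B16 were still called without these arrays, at -2.33, 3.00, 0.68 and -1.25.

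In cotyledon controls limma called 0 members from 1.5 to 13.5 h, with 5 at an unadjusted p below 0.05 (18.4% of all features called), and 1 was called without control replicate 2 or 3 at 1.5 h or control replicate 3 at 13.5 h. From 1.5 to 25.5 h 1 member was called, lower (17% of all features called, 9.93% lower), and 3 were called without control replicate 3 at 25.5 h. This was CYP71B5, which held 7.68, 7.92 and 7.70 at 1.5 h and 7.06, 7.30 and 7.27 at 25.5 h with no overlap, and fell by 0.56 (adjusted p = 0.00206, limma). Quantile normalization gave 1 higher and 2 lower in that comparison.

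Of the 24 members, 10 were called under no treatment. They were CYP71B19, CYP71B20, CYP71B21, CYP71B22, CYP71B23, CYP71B31, CYP71B32, CYP71B38, CYP78A9 and CYP79C2, all with means below the lowest array median. CYP71B20, CYP71B22, CYP71B31, CYP71B32, CYP71B38 and CYP79C2 were called in no comparison of any kind. At these low levels a change of a gene may not show in the value, so a lack of calls does not show that these genes stayed the same. Over the 9 hypocotyl group means the correlation of neighbouring measured members ranged from -0.81 for CYP71B16 and CYP71B19 to 0.53 for CYP71B20 and CYP71B21, and it was -0.36 for CYP71B28 and CYP71B29. Over the 9 cotyledon group means it ranged from -0.72 for CYP71B19 and CYP71B20 to 0.65 for CYP71B26 and CYP71B34, and was 0.47 and -0.28 for these pairs in the hypocotyl. These values describe group means that share arrays and controls and carry no test.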

How the data were processed

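RNA was measured on 54 Affymetrix Arabidopsis Gene 1.1 ST arrays. The submitters' processing notes name Affymetrix Expression Console 1.4, from which the authors took RMA summaries, and these log2 values were used as deposited. RMA subtracts background, equalizes distributions and summarizes probes. This compresses small changes of dim features. The array build is not given in the sources used here, so no coordinates are printed, and symbols and gene order come from TAIR10.1. The platform table named 16746 features with 1 gene, 758 with several and 20904 with none.

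A limma 3.58.1 fit (R 4.3.3) with 18 group means covered the 17504 features that carry a gene, with Benjamini-Hochberg adjustment within each comparison, 36 residual and 4.67 prior degrees of freedom. The number of arrays limits the precision. The fit was also run on independent normal values simulated with its own spread. That run does not test how the fit fares on dim features or arrays high in lectins. Named with values were the 3 largest called rises and falls of each comparison, role-list members and the brightest members. Other called members were added after their values were seen. Members and lists were chosen with earlier results of these data known. Alternatives were quantile normalization within each tissue, centring on reference genes, a filter on features with a mean below the 25th percentile, all features of the array, an intensity trend, a lectin covariate, the compared arrays alone, a replicate block and leaving out arrays. Over 36 pairs of equally numbered arrays of a treatment and its control, deviations from group means correlated at -0.195 to 0.286 (median 0.063).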

Additional observations from a re-analysis of the deposited data

Results flagged for a closer look

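In 10 cases the response in the hypocotyl differed from that in the cotyledon by the test of the difference itself (limma, adjusted p below 0.05). Under ethylene at 13.5 h this was CYP71B37, at -1.23 (hypocotyl change minus cotyledon change, log2). Under ethylene at 25.5 h the differences were -1.73 for CYP71B26, -1.28 for CYP71B6, -1.10 for CYP71B37, -1.05 for CYP71B5, -0.78 for CYP71B28 and 1.32 for CYP84A4. Under shade at 25.5 h they were -1.86 for CYP71B37, -0.78 for CYP71B6 and -0.65 for CYP71B28. The cotyledon control means of CYP71B37 (2.10) and CYP71B26 (2.28) at 25.5 h were low, and a fall may not show at such levels. Calls kept in every alternative were those of CYP71B6, CYP71B5 and CYP71B28 under ethylene at 25.5 h and of CYP71B37 under shade. Each of the others was lost in at least 1 alternative. CYP71B37 under ethylene at 13.5 and at 25.5 h and CYP71B28 under shade were each lost in 5 of 12 fits that left out 1 array.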

How the results depend on the processing

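Across the other settings tried, 229 of 279 counts of called P450 genes stayed within 1.5 times the reported count. Of 81 called changes of a gene, 43 kept their call in every setting that held the gene, and none reversed. The filter on dim features left out 8 members, whose calls had no value in that setting. The following counts moved, and their causes were not tested. Quantile normalization within each tissue gave 1 for hypocotyl shade at 1.5 h, 1 for cotyledon shade at 25.5 h, 1 for the organ difference under shade at 1.5 h and 3 for cotyledon controls from 1.5 to 25.5 h. Centring on reference genes gave 1 for hypocotyl shade at 1.5 h, cotyledon ethylene at 1.5 h, cotyledon shade at 25.5 h and the organ difference under shade at 1.5 h, 3 and 0 for shade minus ethylene in hypocotyls at 1.5 h and cotyledons at 13.5 h, 14 for control organs at 1.5 h, and 5 and 6 for hypocotyl and cotyledon controls from 1.5 to 13.5 h. The filter on dim features, which kept 16 members, gave 1 for hypocotyl shade at 1.5 h, cotyledon ethylene and shade at 25.5 h and both control changes to 13.5 h, 3 for hypocotyl shade minus ethylene at 1.5 h, and 5 and 2 for hypocotyl and cotyledon controls to 25.5 h. The intensity trend gave 1 for cotyledon ethylene at 25.5 h and 2 for cotyledon controls to 25.5 h. Without the arrays high in lectins the counts were 1 for hypocotyl ethylene at 13.5 h, 0 and 1 for hypocotyl shade at 1.5 and 13.5 h, 1 for cotyledon ethylene and for cotyledon shade at 25.5 h, 0 for the organ difference under ethylene at 13.5 h, 5 for control organs at 1.5 h, 4 for hypocotyl controls to 25.5 h and 2 for cotyledon controls to 13.5 h. The lectin covariate gave 4 for hypocotyl ethylene at 13.5 h, 1 for hypocotyl shade at 1.5 and at 13.5 h, cotyledon shade at 25.5 h and cotyledon controls to 13.5 h, 4 for hypocotyl controls and 2 for cotyledon controls to 25.5 h. The compared arrays alone gave 0 for hypocotyl ethylene at 13.5 h, 1 for hypocotyl shade at 1.5 and 13.5 h, 0 for cotyledon shade at 25.5 h, 1 for the organ difference under shade at 25.5 h, 2 for hypocotyl shade minus ethylene at 25.5 h, 1, 0 and 0 for the cotyledon one at 1.5, 13.5 and 25.5 h, and 2 for cotyledon controls to 25.5 h.

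With 1 array left out at a time, counts ranged from 0 to 1 for hypocotyl ethylene at 1.5 h, 1 to 2 at 13.5 h and 7 to 11 at 25.5 h, from 1 to 2, 2 to 3 and 4 to 6 for hypocotyl shade, from 0 to 1 for cotyledon ethylene at 25.5 h and 1 to 2 for cotyledon shade at 25.5 h. They ranged from 0 to 1 for the organ difference under ethylene at 1.5 and 13.5 h and under shade at 1.5 h. For shade minus ethylene they ranged from 3 to 5 in hypocotyls at 1.5 h and 2 to 6 at 25.5 h, and from 0 to 1 and 1 to 2 in cotyledons at 13.5 and 25.5 h. They ranged from 2 to 4 and 5 to 7 for hypocotyl controls to 13.5 and 25.5 h and from 0 to 1 and 1 to 3 for cotyledon controls.

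All 3 pairs of equal replicate number correlated above 0.1 in 1 of 12 treatment comparisons and 1 of 4 control comparisons over time, so the numbers were not taken as pairing the arrays. With the replicate block 28 of 31 counts were unchanged, cotyledon controls from 1.5 to 13.5 h moved to 1, and 1 of 81 called changes was lost, that of CYP79A2 in hypocotyl controls to 25.5 h (adjusted p = 0.0536, limma). Each gene has 1 feature, so another summary of features and the platform's own symbols gave the same 24 genes. Dim signal limits what 16 of the members can show.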
